A study of Mus musculus with 5 samples.

Results

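The genes of the primary cilium and of intraflagellar transport (IFT) were examined in kidney cortical tissue of *Fnip1* null and wildtype mice. They were chosen by gene symbol, with earlier results of these data known. The rule took the *Ift*, *Bbs* and *Nphp* genes with a number, *Tctn1* to *Tctn3*, *Kif3a* to *Kif3c* and 15 further genes of ciliary transport and of the ciliary base. This rule found 46 of the 24421 gene symbols in the data, and 45 of the 46 had enough reads to be tested. RNAseq had been performed on 3 *Fnip1* null mice (genotype Fnip1-/-, mice 8637, 9210 and 9121) and 2 wildtype mice (Fnip1+/+, mice 9055 and 9056), all on the C57BL6J background and with 1 library per mouse. The labels give the controls as Fnip1+/+ and are followed here, but the study's own text names heterozygous (Fnip1+/-) controls for its RNAseq in one place and wildtype controls in another, so each null-over-wildtype value holds only as far as that label does. The null allele arose by ENU chemical mutagenesis and is carried in every cell of the animal. Age and sex were not given in the labels used here. *Fnip1* encodes a partner of Folliculin, the protein whose loss causes Birt-Hogg-Dube' syndrome, and the series compared kidneys with and without it.

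The primary cilium is a single, non-motile projection of the apical membrane, built on a centriole, that most tubular epithelial cells of the kidney carry into the tubule lumen. Its proteins are made in the cell body and are carried to the tip by IFT-B trains on kinesin-2 motors and back by IFT-A and the dynein-2 motor, while the BBSome, a coat built of Bardet-Biedl proteins, moves membrane proteins. A gate at its base, the transition zone, controls what enters. Inherited defects of these genes cause nephronophthisis, Bardet-Biedl, Joubert and Meckel syndromes, in which cysts of the kidney are common.

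Between 15799114 and 19132145 reads per mouse were counted on genes, of which 16091 to 18293 fell on the 46 cilium genes. Levels are given as CPM, the counts of a gene scaled to a common library size, after TMM normalization, and fold changes as log2 of *Fnip1* null over wildtype. *Fnip1* itself was measured at 21.0, 16.9 and 16.0 CPM in the null mice and at 51.8 and 48.7 CPM in wildtype mice (log2 fold change -1.48, SE 0.14, adjusted p = 0.0330 by edgeR's quasi-likelihood test with Benjamini-Hochberg adjustment over 13874 genes). Null mouse 9121 stood apart from the other 4 in sex-linked transcripts, with *Xist* at 314 CPM against 0.172 to 1.41 CPM, so results are also given without it. Among the null mice, 8637 was the closest to wildtype for 57.3% of all genes tested. The markers of kidney cortex were present in all 5 mice. The summed level of 10 proximal tubule markers was 12562 to 17466 CPM in null and 18550 to 20576 CPM in wildtype mice. That list was split, as 5 of the 10 markers lay below and 3 above both wildtype mice in every null mouse. The summed level of 7 podocyte markers was 706 to 821 CPM in null and 391 to 395 CPM in wildtype mice. Of these, 5 passed a false discovery rate of 5% by edgeR's quasi-likelihood test, where 0.678% of all genes tested did. The summed markers of the intercalated cell, the distal tubule and collecting duct, endothelium, fibroblasts and smooth muscle, macrophages, dividing cells and adipocytes also lay above wildtype in all 3 null mice, and those of the loop of Henle and of lymphocytes overlapped. Single markers were less uniform than these sums. Only 6 of 10 endothelial, 5 of 10 dividing cell and 2 of 6 tested adipocyte markers lay above both wildtype mice in every null mouse. The macrophage and the distal tubule and collecting duct lists each had 8 of 10 tested markers above and 1 below. None of the 5 defining motile cilium regulators and dyneins *Foxj1*, *Mcidas*, *Gmnc*, *Ccno* and *Dnah9* exceeded 1.37 CPM in any mouse. The part that these shifts of cell type markers have in the values below was not tested, and in bulk tissue fewer cells of a type and less RNA per cell cannot be told apart.

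The cilium genes as a group differed little between the genotypes. None of the 45 genes tested passed a false discovery rate of 5% by edgeR's quasi-likelihood test, where 0.678% of all genes tested did. With so small a share, the absence of a call among 45 genes does not set them apart. At an unadjusted p under 0.05 there were 6, of which 5 were on the lower side and 1 on the higher side in null mice, against 25.1% of all genes. edgeR's exact test, its likelihood ratio test and DESeq2 each called a single cilium gene, *Ift122*, as lower, where these tests called 3.63%, 3.80% and 4.14% of all genes lower. The fitted change was negative for 33 cilium genes and positive for 12. The median log2 fold change of the cilium genes was -0.060, against 0.0035 for all genes tested. Of all genes tested, 6865 of 13874 had a negative fitted change. Among those with a mean of 10 to 60 CPM, a range chosen after the values were seen, 3218 of 5996 did, with a median of -0.021. With library size alone in place of TMM the median of all genes moved to 0.17 and that of the cilium genes to 0.10. Only 12 of the 45 cilium genes were then negative, so the negative sign is relative to the scaling. The cilium median stayed 0.049 to 0.095 below that of all genes in each of the 16 settings run.

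The size of the changes was bounded for nearly all members. The fitted log2 fold changes ranged from -0.62 to 0.52, and only *Ift122*, *Bbs10* and *Kif3c* were further than 0.5 from zero, which is 6.67% of the cilium genes against 24.5% of all genes and 15.6% of the genes with a mean of 10 to 60 CPM, a range that was chosen after the values were seen. The 95% interval lay wholly within a 2-fold change in either direction for 44 of 45 cilium genes, *Bbs10* being the exception with an interval of -1.06 to 0.042. It lay within 1.5-fold for 31 of them. Among all genes tested, the 2-fold bound held for 70.4% and the 1.5-fold bound for 46.8%. Among those with a mean of 10 to 60 CPM, they held for 85.0% and 62.7%, against 97.8% and 68.9% of the cilium genes. The CPM of the 3 null mice did not overlap those of the 2 wildtype mice in 18 cilium genes, 14 of them on the lower side, against 45.9% of all genes (23.0% lower and 22.9% higher).

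**Figure D1:**
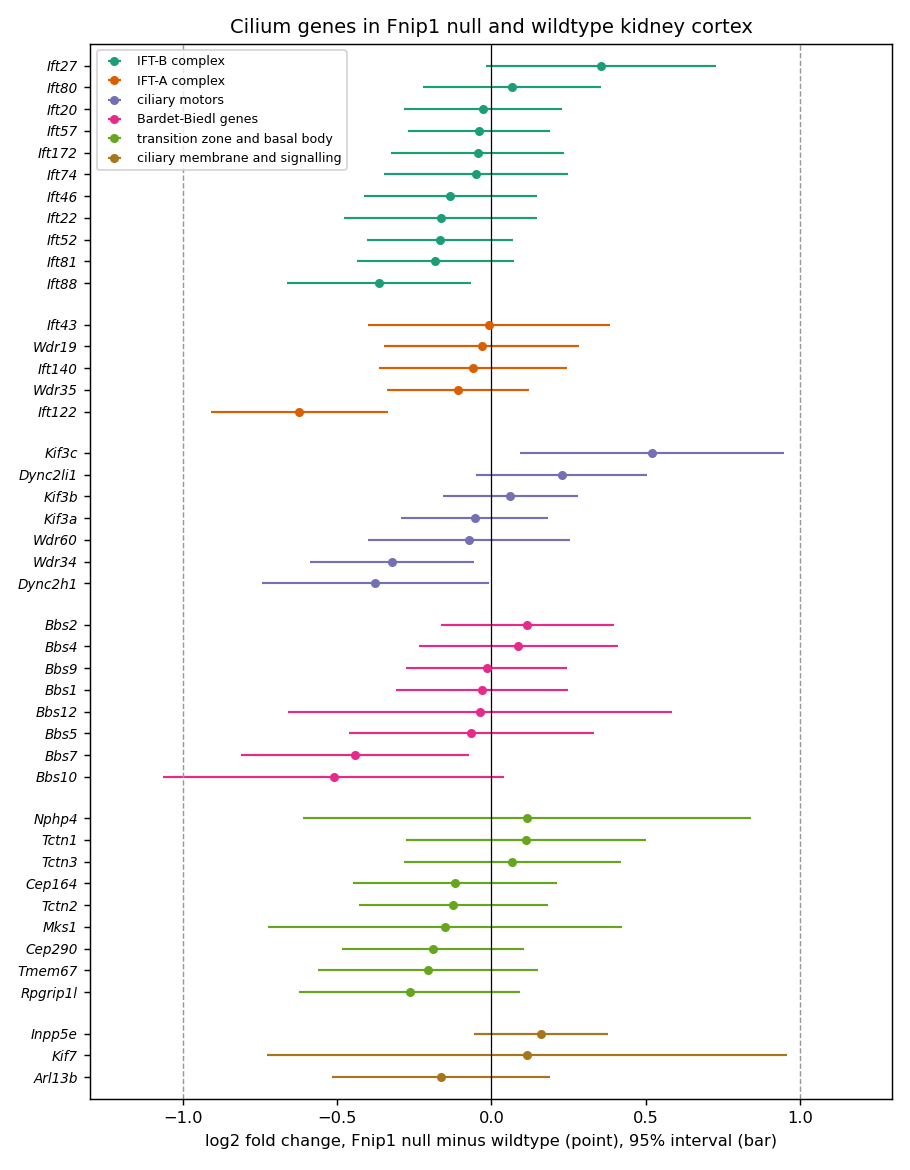
Log2 fold change of the tested cilium genes, *Fnip1* null over wildtype (x axis; 3 null and 2 wildtype mice), by gene and role (y axis), with bars for the 95% interval of the quasi-likelihood fit and dashed lines at 2-fold. Most points sit within 0.3 of zero, *Ift122* at -0.62 and *Kif3c* at 0.52 mark the ends, and the bar of *Bbs10* alone crosses a 2-fold line.

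Many genes of this machinery share a promoter element, the X-box, that binds the RFX transcription factors. To show it in the members, promoter windows of 250 bases before to 50 bases after a start of the gene were taken from RefSeq (GRCm38.p6). Of the 46 genes, 39 had such a window. Some, *Nphp4* and *Inpp5e* among them, had windows at different starts, and a gene was counted if any of its windows matched. A loose form of the X-box, GTNNCC and GNAAC with 3 bases of any kind between them, was found on either strand in 9 of the 39 (23.1%), in 2.49% of all 27025 genes with a window and in 3.13% of the 10566 of these that were tested here. Its first arm alone, GTTGCC, was found in 20 of the 39 (51.3%), in 14.1% of all genes and in 14.8% of those tested. The arm forms part of the longer pattern at several of these sites, so the counts are not independent. Both patterns were among 8 looked at. Of the others, CACGTG was found in 5.13% of the cilium genes, 8.09% of all genes and 11.6% of those tested. CCGGAAG was found in 23.1% of the cilium genes, as often as the longer pattern, in 9.93% of all genes and in 18.7% of those tested. A match is a run of letters and was not shown to be bound here. The longer pattern was found in 4 of 8 transition zone and basal body genes, 3 of 8 Bardet-Biedl genes and 2 of 9 IFT-B genes, and in none of 4 IFT-A genes, 7 motor genes and 3 membrane and signalling genes with a window. The matches of the longer pattern that lie upstream of the start of their window's RefSeq entry are shown here, from 6 genes. Those of *Kif3c* and *Ift27*, which held the short arm only, are below them. The *Nphp4* match lies before the last of several starts, inside the gene span of GENCODE M21, which begins at chr4:152476706. The *Ift27* site also lies inside its GENCODE M21 span. The matches of *Bbs1*, *Bbs4* and *Tctn1* lie after the start. Each is written in the direction of its gene, with the pattern in capitals, and in *Ift57*, *Tctn2* and the first *Ift22* site the pattern reads on the opposite strand.
Bbs7 (chr3:36613492-36613515, minus strand): ccccgGTTGCCTTGGAAACcggcc
Ift22 (chr5:136908082-136908105, plus strand): tcaggGTTTCCTGGGCTACtgcgc
Ift22 (chr5:136908112-136908135, plus strand): tcccgGTCGCCGTGGAAACtgacc
Ift57 (chr16:49699202-49699225, plus strand): gtctgGTTGCCGTGGTGACcggct
Tctn2 (chr5:124598682-124598705, plus strand): tggagGTTACCATGGCTACtggtc
Mks1 (chr11:87853186-87853209, plus strand): tctccGTTGCCAGGGGAACgaggc
Nphp4 (chr4:152477906-152477929, plus strand): tgcccGTCTCCTAGGTAACgcgcc
Kif3c (chr12:3364951-3364966, plus strand): tggcgGTTGCCgagag
Ift27 (chr15:78174080-78174095, minus strand): tgatgGTTGCCaggag
In *Bbs7* and *Mks1* the letters matched the pattern on both strands, which makes these sites palindromic in their fixed positions. Of the 9 genes with the longer pattern, 6 had a negative and 3 a positive fitted change, from a log2 fold change of -0.44 for *Bbs7* to 0.12 for *Nphp4*, and none passed the test.

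The matched sites sit in promoters of differing make-up. This is shown by the 250 bases before the RefSeq start of *Bbs7*, with the longer pattern, and of *Kif3c*, with the short arm. The patterns are again in capitals, and part of the *Bbs7* window lies inside its GENCODE M21 span. The first window has 62.0% and the second 55.6% of G and C.
Bbs7 (chr3:36613390-36613639, minus strand): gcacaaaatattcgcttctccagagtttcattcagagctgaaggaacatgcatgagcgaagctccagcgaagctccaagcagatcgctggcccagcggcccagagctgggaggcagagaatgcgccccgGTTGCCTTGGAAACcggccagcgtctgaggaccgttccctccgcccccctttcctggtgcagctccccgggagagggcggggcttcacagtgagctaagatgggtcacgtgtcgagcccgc
Kif3c (chr12:3364882-3365131, plus strand): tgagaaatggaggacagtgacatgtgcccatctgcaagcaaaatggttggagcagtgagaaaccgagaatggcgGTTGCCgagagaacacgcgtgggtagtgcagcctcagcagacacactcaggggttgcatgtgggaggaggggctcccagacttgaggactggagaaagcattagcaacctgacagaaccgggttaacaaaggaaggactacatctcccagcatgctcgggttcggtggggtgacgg

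The cilium genes spanned a wide range of levels in wildtype kidney. Per kilobase of exon, the highest was *Ift20*, an IFT-B subunit that also sits at the Golgi, at 22.6 CPM per kilobase, and *Ift52*, a core IFT-B subunit, was at 19.8. The dynein-2 light intermediate chain *Dync2li1* was at 17.3 CPM per kilobase, while the heavy chain *Dync2h1*, the motor subunit itself, was at 2.33. Within IFT-A, *Ift122* led at 8.27 CPM per kilobase and *Wdr19* was last at 1.06. In the remaining roles *Bbs2*, a BBSome subunit, was highest of the Bardet-Biedl genes at 7.03 CPM per kilobase, and *Inpp5e*, the lipid phosphatase of the ciliary membrane, highest of the membrane and signalling genes at 8.13. The lowest levels were those of *Nphp4* (0.374 CPM per kilobase), of *Kif7*, the kinesin of the Hedgehog pathway (0.275), and of *Kif17*, the homodimeric kinesin-2 (0.0589). *Kif17* had 4, 6 and 10 reads in the null mice and 5 and 4 in wildtype mice, near the floor of 3 counts, and was the only member not tested. *Ift122*, *Inpp5e* and *Ift43* (8.07 CPM per kilobase) differed in level by less than *Ift122* did between the wildtype mice. The exon lengths, taken from all annotated transcripts, can understate genes with long rare exons.

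**Figure D2:**
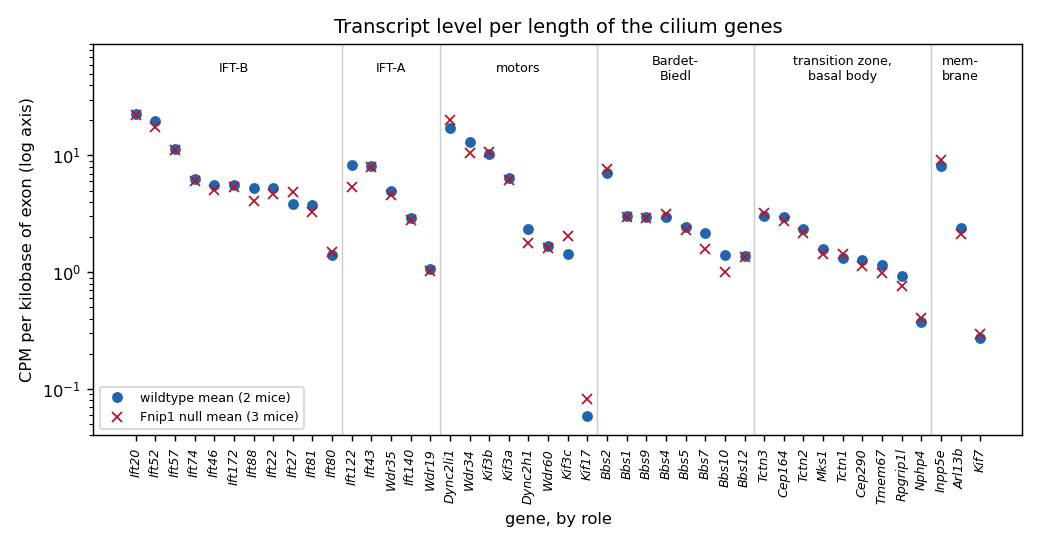
Mean level of the cilium genes in CPM per kilobase of exon (y axis, log scale), by role (x axis), in wildtype (2 mice, circles) and *Fnip1* null (3 mice, crosses) kidney. *Ift20* is highest at 22.6 in wildtype, *Kif17* is lowest, and the crosses lie on or beside the circles for most genes, with *Ift122* visibly below.

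The IFT-B genes encode the train that carries cargo to the tip of the cilium. Of the 11 measured, 9 had a negative and 2 a positive fitted change (median log2 fold change -0.050). None passed edgeR's quasi-likelihood test or was called by the other tests, and 1 had an unadjusted p under 0.05. *Ift88*, the gene mutated in the classical polycystic Tg737 mouse (chr14:57424062-57517936), was measured at 21.0, 18.5 and 17.3 CPM in null mice 8637, 9210 and 9121, against 24.2 and 24.7 CPM in wildtype. All 3 null mice lay below both wildtype mice (19.0 ± 1.9 against 24.4 ± 0.3, SD, n = 3 and 2), with a log2 fold change of -0.37 (SE 0.12, adjusted p = 0.146 by edgeR's quasi-likelihood test). Without mouse 8637 the value was -0.44 and the call was made (adjusted p = 0.0449, same test), in a fit where 20.0% of all genes were called. Without mouse 9121 it was -0.30 and the call was not made (adjusted p = 0.266, same test).

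*Ift27*, a small GTPase of the train needed for the exit of BBSome cargo (chr15:78159463-78174107), lay on the other side of wildtype. It was measured at 12.0, 14.4 and 15.4 CPM in null and at 11.0 and 10.8 CPM in wildtype mice, so that the groups did not overlap (log2 fold change 0.36, SE 0.15, adjusted p = 0.213 by the same edgeR test). Without mouse 9121 the log2 fold change was 0.28 (adjusted p = 0.414 by the same edgeR test). *Ift52*, *Ift81* and *Ift22*, another small GTPase of IFT-B, lay below wildtype in each null mouse, but with small log2 fold changes of -0.17, -0.18 and -0.16. The other 6 IFT-B genes, *Ift20*, *Ift46*, *Ift57*, *Ift74*, *Ift80* and *Ift172*, had overlapping groups and log2 fold changes of -0.13 to 0.065. *Ift57* was among the most even, at 32.9, 31.4 and 30.6 CPM in null and 31.6 and 33.5 CPM in wildtype mice.

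IFT-A carries proteins back to the cell body and brings membrane proteins into the cilium. *Ift122*, one of its core subunits and a gene of cranioectodermal dysplasia (chr6:115853470-115926699), had the lowest fold change of all 45 members. It was measured at 62.9, 51.0 and 52.3 CPM in null mice 8637, 9210 and 9121, against 81.4 and 89.2 CPM in wildtype. Every null mouse lay below both wildtype mice by a gap larger than the spread within either genotype (55.4 ± 6.6 against 85.3 ± 5.5 CPM, SD, n = 3 and 2). The level was thus 35.1% lower, with a log2 fold change of -0.62 (SE 0.12, 95% interval -0.91 to -0.34).

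The call on *Ift122* depended on the test. Its adjusted p was 0.0700 by edgeR's quasi-likelihood test, 0.00329 by edgeR's exact test and 0.00243 by DESeq2. Without mouse 8637 it was called by the quasi-likelihood test as well (log2 fold change -0.72, adjusted p = 0.00862), and without mouse 9121, where 1.41% of all genes were called, it was not (-0.58, adjusted p = 0.0828). Without mouse 9210, where no gene at all was called, it was not called either (-0.57, adjusted p = 0.257, same test). The log2 fold change was -0.69 without wildtype mouse 9055 and -0.55 without 9056. The other 4 IFT-A genes did not share the size of this difference. *Wdr35* was measured at 32.1, 32.2 and 35.1 CPM in null against 36.1 and 35.3 CPM in wildtype mice (log2 fold change -0.11), below wildtype in each null mouse but within 1 CPM of it in mouse 9121. *Ift140*, *Wdr19* and *Ift43* had overlapping groups and log2 fold changes of -0.060, -0.032 and -0.008.

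**Figure D3:**
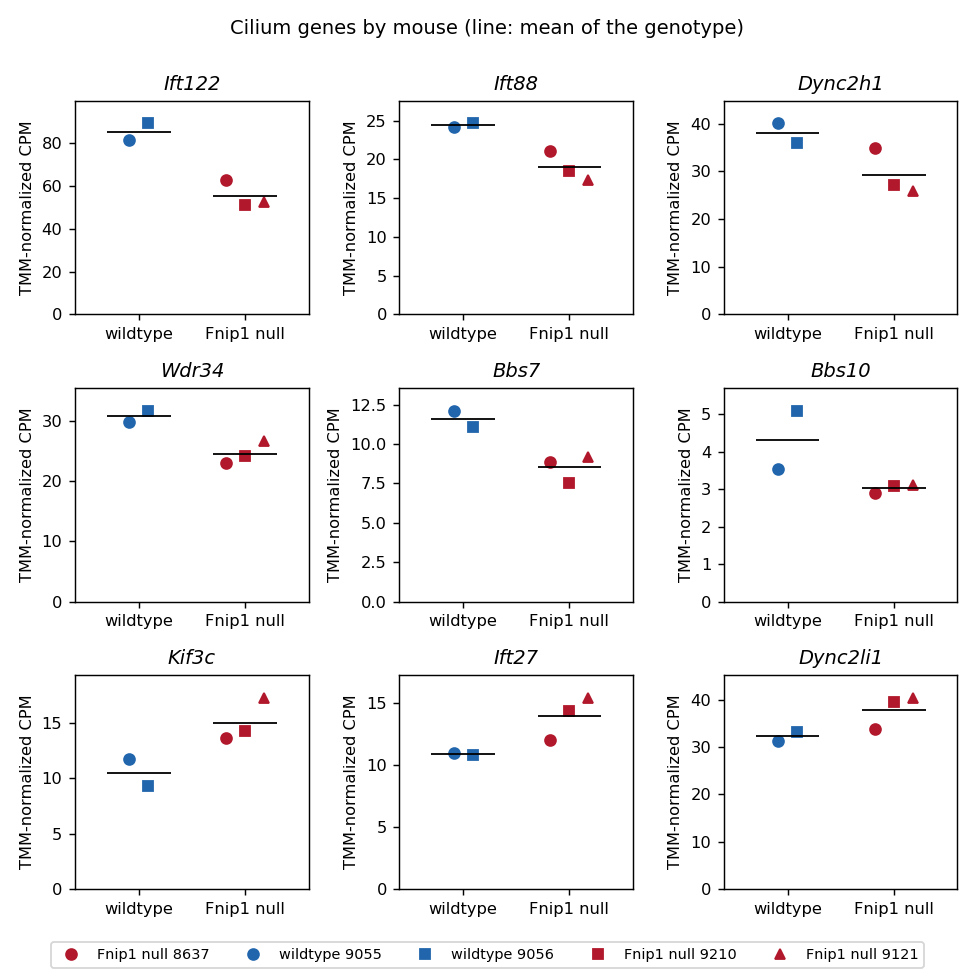
TMM-normalized CPM (y axis, from 0) of 9 cilium genes in each wildtype (blue) and *Fnip1* null (red) mouse, with a line at the mean of each genotype. The null mice lie below both wildtype mice for *Ift122*, *Ift88*, *Dync2h1*, *Wdr34*, *Bbs7* and *Bbs10* and above them for *Kif3c*, *Ift27* and *Dync2li1*. None of these genes passed a false discovery rate of 5% by the quasi-likelihood test.

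Within a single motor, subunit genes lay on opposite sides of wildtype. Dynein-2 was represented by its heavy chain *Dync2h1*, its light intermediate chain *Dync2li1* and its intermediate chains *Wdr34* and *Wdr60*. *Dync2h1* (chr9:6928503-7184446) was measured at 34.9, 27.1 and 26.0 CPM in null and 40.1 and 36.0 CPM in wildtype mice (log2 fold change -0.38, SE 0.15). *Wdr34* was measured at 22.9, 24.1 and 26.6 CPM in null and 29.8 and 31.6 CPM in wildtype mice (log2 fold change -0.32, SE 0.11). *Dync2li1* was measured at 33.8, 39.5 and 40.4 CPM in null and 31.4 and 33.3 CPM in wildtype mice (log2 fold change 0.23, SE 0.11).

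The genotypes did not overlap for any of these 3 subunits, as for 45.9% of all genes (23.0% lower and 22.9% higher). None passed the test, and the adjusted p-values by edgeR's quasi-likelihood test were 0.192, 0.149 and 0.266. For *Dync2h1* mouse 8637 lay close to wildtype mouse 9056, and without 8637 the gene was called lower (log2 fold change -0.52, adjusted p = 0.0266), where 9.98% of all genes were called lower. Without mouse 9121 *Dync2h1*, *Wdr34* and *Dync2li1* stood at -0.30, -0.39 and 0.18. None of the 3 was then called (adjusted p = 0.332, 0.152 and 0.484 by the quasi-likelihood test). *Wdr60* overlapped between the genotypes (12.9, 14.2 and 11.9 CPM in null, 13.4 and 14.0 CPM in wildtype mice).

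Kinesin-2 runs outward as a trimer of *Kif3a*, *Kif3b* and an adaptor, or with *Kif3c* in place of *Kif3b*. *Kif3a* and *Kif3b* were nearly level between the genotypes, with log2 fold changes of -0.055 and 0.061, and *Kif3a* had the smallest spread of all members among null mice (22.7, 21.9 and 22.2 CPM). *Kif3c*, best known from neurons (chr12:3365132-3406494), was measured at 13.6, 14.3 and 17.3 CPM in null and 11.7 and 9.27 CPM in wildtype mice. All null mice lay above both wildtype mice (15.0 ± 1.9 against 10.5 ± 1.8 CPM, SD, n = 3 and 2), and its log2 fold change of 0.52 was the highest of the cilium genes (SE 0.18, 95% interval 0.093 to 0.95, adjusted p = 0.147 by edgeR's quasi-likelihood test). Without mouse 9121 the log2 fold change of *Kif3c* was 0.41 (adjusted p = 0.258, same test). Of its exon bases, 35.3% overlap the gene *1110002L01Rik*, and the strand setting of the counting is not given in the sources used here, so reads of the pair may not have been told apart.

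Ratios between genes of the same machinery do not depend on how a library is scaled. The count ratio of *Ift122* to *Wdr35* was 1.96, 1.59 and 1.49 in null mice 8637, 9210 and 9121, against 2.25 and 2.52 for wildtype mice. That of *Wdr34* to *Dync2li1* was 0.679, 0.610 and 0.659 in null and 0.949 and 0.950 in wildtype mice. The genotypes did not overlap in either ratio. The gap between them was smaller than the range among null mice for *Ift122* to *Wdr35* and larger than the range within either genotype for *Wdr34* to *Dync2li1*. The ratio of *Dync2h1* to *Dync2li1* was 1.03, 0.685 and 0.643 in null and 1.28 and 1.08 in wildtype mice, with mouse 8637 next to wildtype. The ratio of *Ift27* to *Ift22* was 0.788, 0.820 and 0.864 in null and 0.615 and 0.542 in wildtype mice. That of *Wdr34* to *Wdr60* overlapped, at 1.78, 1.69 and 2.23 in null and 2.23 and 2.26 in wildtype mice. In *Wdr34* or *Dync2h1* to *Dync2li1*, and in *Ift27* to *Ift22*, the genes alone already lay apart on opposite sides of wildtype. Those ratios therefore had to separate and add nothing to the values of the single genes. The pairs were picked after the values were seen, so no test is given, and an exact permutation test of 3 against 2 mice could not go below p = 0.1.

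**Figure D4:**
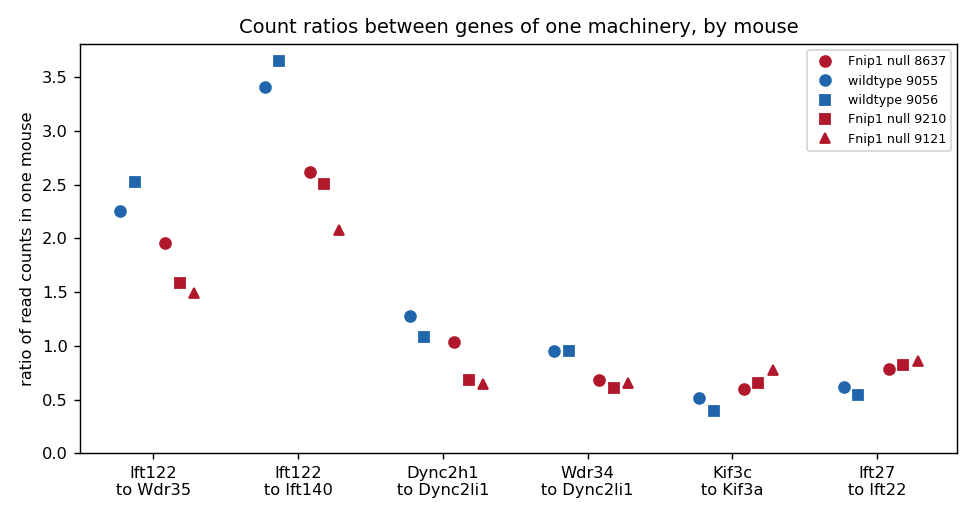
Ratio of read counts between pairs of cilium genes in each mouse (y axis, from 0; blue wildtype, red *Fnip1* null), for 6 pairs. The null mice lie below wildtype for *Ift122* to *Wdr35*, *Ift122* to *Ift140*, *Dync2h1* to *Dync2li1* and *Wdr34* to *Dync2li1*, and above it for *Kif3c* to *Kif3a* and *Ift27* to *Ift22*. Except in the pairs with *Ift122*, the genes alone lay apart on opposite sides of wildtype, so their ratios had to separate.

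The Bardet-Biedl genes encode the BBSome and the chaperonin-like proteins that help assemble it. Of the 8 genes, 6 had a negative and 2 a positive fitted change (median log2 fold change -0.034). *Bbs7*, a BBSome subunit (chr3:36573142-36613477), was measured at 8.84, 7.55 and 9.19 CPM in null and 12.1 and 11.1 CPM in wildtype mice (log2 fold change -0.44, SE 0.15, adjusted p = 0.151 by edgeR's quasi-likelihood test). *Bbs10*, one of the chaperonin-like genes, was measured at 2.89, 3.09 and 3.12 CPM in null and 3.54 and 5.09 CPM in wildtype mice (log2 fold change -0.51, SE 0.23, adjusted p = 0.224 by the same test). The null mice were closely grouped below both wildtype mice for *Bbs10*, and the wildtype mice were far apart. Without mouse 9121 *Bbs7* and *Bbs10* stood at -0.50 and -0.53 and were not called (adjusted p = 0.186 and 0.331 by the quasi-likelihood test).

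The remaining Bardet-Biedl genes overlapped between the genotypes. *Bbs2* had the highest fold change of the group, with 24.2, 24.0 and 27.6 CPM in null and 24.0 and 22.5 CPM in wildtype mice (log2 fold change 0.12). The BBSome subunits *Bbs1*, *Bbs4*, *Bbs5* and *Bbs9* and the chaperonin-like *Bbs12* had log2 fold changes of -0.066 to 0.087. *Bbs5* and *Bbs9* were, after *Kif3a*, the members with the smallest spread among null mice, with an SD of log2 CPM of 0.040 and 0.041.

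The transition zone and basal body genes encode the gate at the base of the cilium and its anchor. Of the 11 genes, 8 had a negative and 3 a positive fitted change (median log2 fold change -0.12), none reached an unadjusted p under 0.05, and no other test called any. *Rpgrip1l*, a scaffold of the transition zone, was measured at 12.4, 11.5 and 9.93 CPM in null and 14.0 and 13.2 CPM in wildtype mice. *Cep290*, which links the membrane to the microtubules there, was measured at 13.5, 12.8 and 12.7 CPM in null and 15.5 and 14.2 CPM in wildtype mice. *Tmem67* was measured at 7.25, 7.67 and 8.13 CPM in null and 8.51 and 9.21 CPM in wildtype mice. In these 3 of 11 genes the null mice lay below both wildtype mice, as in 23.0% of all genes, with log2 fold changes of -0.26, -0.19 and -0.21, which did not pass edgeR's quasi-likelihood test (adjusted p = 0.310, 0.372 and 0.419).

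*Nphp4* lay at 1.77, 2.44 and 3.12 CPM in null and 2.17 and 2.35 CPM in wildtype mice, and its log2 fold change of 0.12 became -0.11 without mouse 9121. *Mks1*, *Cep164* and *Tctn1* to *Tctn3* overlapped between the genotypes at log2 fold changes of -0.15 to 0.11. Exons of *Tctn1* and *Cep290* overlap other counted genes over 19.0% and 7.58% of their bases.

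The ciliary membrane and signalling genes were 3. *Inpp5e* was measured at 38.0, 40.8 and 38.5 CPM in null and 34.9 and 35.0 CPM in wildtype mice, above both wildtype mice in each null mouse, with a log2 fold change of 0.16 (adjusted p = 0.309 by edgeR's quasi-likelihood test). The gene *Pmpca* overlaps 20.3% of its exon bases. *Arl13b*, the small GTPase that holds Inpp5e in the cilium, lay at 9.72, 11.1 and 11.7 CPM in null and 12.7 and 11.6 CPM in wildtype mice (log2 fold change -0.16). *Kif7* had 17 to 32 reads per mouse and a log2 fold change of 0.12 with a wide 95% interval of -0.73 to 0.96.

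The cilium genes varied somewhat less than all genes tested between mice of the same genotype. The median SD of log2 CPM among the null mice was 0.123 for the cilium genes and 0.166 for all genes tested. The median difference between the wildtype mice was 0.112 and 0.144. This spread was not compared with that of genes of like level. The median SE of the log2 fold change was 0.127 for the cilium genes and 0.152 for all genes tested. It was 0.130 for genes with a mean of 10 to 60 CPM, close to that of the cilium genes. The largest spread among null mice was that of the sparsely read *Kif17* (0.436), *Nphp4* (0.390) and *Kif7* (0.348). Summed over the 46 genes, the null mice were at 960, 957 and 966 CPM and the wildtype mice at 1025 and 1039 CPM. With library size alone in place of TMM, the sums were 944, 1018 and 1053 in null and 979 and 949 in wildtype mice. The genotypes then overlapped, so the lower sums in null mice hold only relative to the TMM scaling. Mouse 8637 was the closest to the wildtype mean in 20 of the 45 tested cilium genes, 9121 in 16 and 9210 in 9, so the place of 8637 beside wildtype seen in *Dync2h1* was not general among the members. Leaving out 8637 nonetheless brought calls on cilium genes, all lower and *Dync2h1*, *Ift122* and *Ift88* among them, where 9.98% of all genes were then called lower.

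Other genes of the cilium, from lists of trafficking, transition zone, assembly, disassembly, cargo, Hedgehog and motile cilium genes, were read from the same fit. Of 107 such genes in the data 88 were tested, 45 with a positive and 43 with a negative fitted change (median log2 fold change 0.0090). A single gene rose and a single gene fell, where 0.526% of all genes were called higher and 0.151% lower. edgeR's exact test, its likelihood ratio test and DESeq2 called 2, 3 and 3 of them higher, where they called 6.18%, 6.81% and 6.18% of all genes higher, and each called 1 lower. *Tmem237*, a membrane protein of the transition zone mutated in Joubert syndrome, fell from 36.8 and 43.2 CPM in wildtype to 21.2, 17.0 and 18.9 CPM in null mice (log2 fold change -1.07, SE 0.13, adjusted p = 0.0411 by edgeR's quasi-likelihood test). *Adcy5*, an adenylyl cyclase found in cilia and elsewhere, rose from 4.72 and 4.86 CPM to 10.6, 14.3 and 12.1 CPM (log2 fold change 1.37, SE 0.19, adjusted p = 0.0466 by the same test). The groups were far apart in both genes, and both calls held without mouse 9121 (adjusted p = 0.0351 and 0.0418 by edgeR's quasi-likelihood test). Like the call on *Fnip1*, they were lost without mouse 9210 or either wildtype mouse (adjusted p = 0.174 to 0.518 for *Tmem237* and 0.182 to 0.530 for *Adcy5*), where no gene of the whole table was called.

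In the trafficking list 7 of 19 tested genes had a positive fitted change, and none passed the quasi-likelihood test. *Tulp3*, which carries receptors into the cilium with IFT-A, had the lowest log2 fold change (-0.47, adjusted p = 0.201 by edgeR's quasi-likelihood test), with mouse 8637 at 59.2 CPM beside wildtype at 59.4 and 68.8 CPM and the other null mice at 40.8 and 39.3 CPM. *Dynlt1b*, a dynein light chain not restricted to cilia, had the highest (1.05, adjusted p = 0.0872 by the same test and 0.0106 by edgeR's exact test). The adaptor of kinesin-2, *Kifap3*, lay at 41.3, 39.9 and 42.0 CPM in null and 36.5 and 35.3 CPM in wildtype mice. In the assembly list the log2 fold changes ran from -0.47 for *Cspp1*, of the ciliary axoneme, to 0.27 for *Rfx2*, and the RFX factors *Rfx1* and *Rfx3* stood at 0.0076 and 0.010.

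The cilium also houses polycystins and Hedgehog signalling. *Pkd1* and *Pkd2*, the genes of dominant polycystic kidney disease, overlapped between the genotypes (log2 fold change 0.14 and -0.023), and *Pkhd1*, that of the recessive disease, lay at 213, 181 and 204 CPM in null and 255 and 235 CPM in wildtype mice (-0.30, adjusted p = 0.159 by edgeR's quasi-likelihood test). In the Hedgehog list 9 of 11 tested genes had a positive fitted change (median log2 fold change 0.52) and none was called by any of the tests, while 2 of the 11 had an unadjusted p under 0.05 by the quasi-likelihood test, against 25.1% of all genes. The extremes were the antagonist *Hhip*, read at 0.114 to 2.02 CPM (1.47), and *Sufu*, the repressor of the GLI factors (-0.24). *Gli1* and *Ptch1*, targets of the pathway, lay at 0.458 to 0.845 CPM and 27.4 to 36.9 CPM with overlapping groups, *Gli1* being too sparse to test. Fibroblast and smooth muscle markers, whose cells also respond to this pathway, were at 365 to 675 CPM in null and 206 to 339 CPM in wildtype mice in sum, and their part in the Hedgehog values was not tested.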

How the data were processed

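RNAseq of kidney cortical tissue was performed by the authors from TruSeq RNA libraries (paired-end reads). The data analysed here hold 3 *Fnip1* null and 2 wildtype mice, while the study's text counts another number of wildtype mice. Mice are numbered as in their labels, and for the null mouse labelled 9210 another record of the deposit has the digits of its number in another order. Per the submitters' processing notes, reads were aligned to mm10 with TopHat2 2.1.0 and counted per gene with HTSeq 0.6.1; counting mode and strand setting are not given in the sources used here. The deposited values are raw counts per gene symbol. Reads without a gene (9.91 to 10.8%), ambiguous (0.741 to 0.803%) or not uniquely aligned (28.3 to 31.4%) were left out, which leaves 57.2 to 61.0% on genes and can lower genes with copies. Mice of a genotype differed by far more than sampling noise (chi-square per degree of freedom of 9.77 or more), so each is 1 replicate; 3 counts correspond to 0.158 to 0.186 CPM.

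Genes with under 10 counts in more than 2 mice were removed, as the authors' methods describe without giving the minimum. The remaining 13874 were TMM-normalized and tested with edgeR 4.0.16 (glmQLFit, glmQLFTest) in R 4.3.3, with Benjamini-Hochberg adjustment over all of them, and called at a false discovery rate of 5%. The adjusted-deviance form of glmQLFit (legacy set to FALSE) was used. It was settled on after the legacy form had been run, because it gave the number of calls of an earlier analysis of these data: 94 genes against 102 (83 with the common dispersion), with no cilium gene called by any of them. SEs and 95% intervals were derived from the F statistic. On counts simulated for this comparison over 13874 genes, 48 of 88 genes changed 2-fold and 101 of 112 changed 4-fold were recovered, and 19 unchanged genes were called. False calls thus made up more than the nominal 5% of the calls in that simulation. Changes smaller than 2-fold, the size fitted for every cilium gene tested, were not simulated. DESeq2 1.42.0 and edgeR's exact and likelihood ratio tests served as alternatives. CPM per kilobase used the merged exons of GENCODE M21, which matched all 46 symbols.

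The cilium genes, their roles and the other ciliary lists were chosen with earlier results of these data known. Named with values were *Fnip1*, genes at the threshold, genes with non-overlapping genotypes, the extremes of each role or list in fold change, level or spread, and whole marker lists. *Ift57*, *Wdr60*, *Kif3b*, *Arl13b*, *Kifap3*, *Pkd1*, *Pkd2*, *Pkhd1*, *Gli1*, *Ptch1*, *Rfx1* and *Rfx3*, where outside that rule, and the ratio pairs, promoter patterns and plotted genes were picked after values were seen. Single values of some members are not reported or plotted here, and counts and medians cover all members.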

Additional observations from a re-analysis of the deposited data

How the results depend on the processing

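Cilium genes called lower numbered 0 by the quasi-likelihood test and 1 by DESeq2 and by edgeR's exact and likelihood ratio tests (*Ift122* each time). With each mouse left out in turn the number was 0 to 4, the 4 being without mouse 8637; a fit without a wildtype mouse assumes that the lone one varies like the null mice. No cilium gene was called higher in any setting. For the other ciliary genes, 1 was called higher, against 2 by the exact test, 3 by the likelihood ratio test, 3 by DESeq2 and 0 to 5 with a mouse left out; 1 was called lower, against 0 to 6 with a mouse left out. These tests called 6.18%, 6.81% and 6.18% of all genes higher, and the 5 and the 6 come from the fit without mouse 8637, where 20.0% of all genes were called in either direction and 9.98% lower. The calls of *Tmem237* and *Adcy5*, like that of *Fnip1* (log2 fold change -1.60 to -1.40 with a mouse left out), were lost without mouse 9055, 9056 or 9210, fits in which no gene of the whole table was called. The median of the cilium genes became 0.10 with library size only. With that scaling 12 of the 45 cilium genes had a negative fitted change, against 33 in the main fit. Among the members followed singly across settings, those that turned sign with it were *Ift22* (0.0032), *Kif3a* (0.11), *Wdr35* (0.055), *Arl13b* (0.0017) and *Ift43* (0.16). *Ift43* turned too at a minimum of 1 CPM (4.9e-05), without mouse 8637 (0.11) and without mouse 9055 (0.0096). Its range with a mouse left out was -0.075 to 0.11. *Nphp4* was -0.11 without mouse 9121 and up to 0.30 with another mouse left out. The cause of these shifts was not tested, beyond the smaller number of mice in some. The 3 forms of edgeR's legacy quasi-likelihood method, added after the data were seen, changed no call named here. No paired analysis was possible because the mice of the genotypes share no number. Depth limits *Kif17*, *Kif7*, *Nphp4* and most motile cilium genes, and 3 against 2 mice limits all tests.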

Other observations

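Genes for taking the cilium apart were not described above. Of the 9 tested, 6 had a positive and 3 a negative fitted change (median log2 fold change 0.083), and none passed edgeR's quasi-likelihood test, by which 2 had an unadjusted p under 0.05, against 25.1% of all genes. The likelihood ratio test and DESeq2 each called 1, *Nedd9*, as higher, where they called 6.81% and 6.18% of all genes higher. *Nedd9*, a scaffold that activates the Aurora A kinase at the ciliary base, was measured at 77.3, 75.2 and 84.2 CPM in null and 63.1 and 54.9 CPM in wildtype mice (log2 fold change 0.42, SE 0.10, adjusted p = 0.0975 by edgeR's quasi-likelihood test). *Hdac6*, the tubulin deacetylase that acts downstream of it, was measured at 76.8, 80.9 and 92.8 CPM in null and 93.4 and 111.5 CPM in wildtype mice (-0.30, adjusted p = 0.201 by the same test). The genotypes did not overlap for either gene, as for 45.9% of all genes. Of the 9 tested genes of the list, 2 lay above and 1 below both wildtype mice in every null mouse. *Aurka* itself overlapped between them at 1.80 to 3.69 CPM. The extremes of the list were *Plk1* (0.91) and *Nek2* (-0.42), cell cycle kinases with overlapping groups, and the summed dividing cell markers were at 35.6 to 76.5 CPM in null and 25.4 to 29.8 CPM in wildtype mice.

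Of 16 motile cilium genes 4 had enough reads to be tested, at log2 fold changes of -0.14 to 0.23, and none passed the test or had an unadjusted p under 0.05. Cargo carriers of lipid-modified ciliary proteins differed in sign: *Unc119b* was measured at 258, 218 and 203 CPM in null and 299 and 300 CPM in wildtype mice (log2 fold change -0.41, adjusted p = 0.125 by edgeR's quasi-likelihood test), while *Arl3*, the GTPase that releases their cargo, was at 51.2, 56.7 and 56.1 CPM in null and 42.3 and 46.2 CPM in wildtype mice (0.30, adjusted p = 0.133 by the same test).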
